A study of Rattus norvegicus with 11 samples.

Results

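Established hypoblast stem cells of the rat, called cHypoSCs in the labels, were compared with the DAc2 embryonic stem cells from which they had been converted. The comparison used 8 of the 11 Affymetrix Rat Gene 1.0 ST arrays of the study: the 6 arrays of days 17 and 32, pooled as established cells, and the 2 arrays of day 0. The 3 arrays of day 7 were not used here. Among the established arrays 4 came from stem cells that had been kept without feeder cells, 2 at day 17 and 2 at day 32, and 2 came from stem cells that had been kept on feeder cells, 1 at each of these days. Day 0 had 1 array per culture. Established cells were in a medium for rat multipotent adult progenitor cells, with 2% fetal bovine serum, LIF, EGF and PDGF. The day 0 stem cells were in N2B27 medium with 3 µM CHIR99021, which blocks GSK3, and with PD0325901, which blocks MEK. Without feeder cells, on laminin, PD0325901 was at 2 µM and human BMP4 was added at 5 ng/mL. On feeder cells, which were mouse embryonic fibroblasts, PD0325901 was at 0.5 µM and no BMP4 is listed. State, medium and time in culture thus change together in this comparison and cannot be told apart. All samples derive from 1 cell line. Below, "feeder" and "feeder-free" name the culture of the starting stem cells, since the presence of feeder cells on later days is not given in the titles. The titles call the paired feeder-free arrays of days 17 and 32 biological replicates. Whether they came from separate cultures is not stated, nor whether days 17 and 32 sampled the same culture. The spread behind the p-values may thus be technical.

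In the blastocyst the inner cell mass separates into the epiblast, which forms the embryo proper, and the hypoblast or primitive endoderm. Signalling through FGF and ERK favours the hypoblast, and the transcription factors Nanog and Gata6 mark the alternative fates. Hypoblast cells give rise to the visceral endoderm, an absorptive epithelium around the embryo, and to the parietal endoderm, which secretes the thick basement membrane known as Reichert's membrane in rodents. Cells of the parietal kind are therefore known for the synthesis of laminin and type IV collagen, and those of the visceral kind for endocytosis and for plasma proteins such as Afp and Apoa1.

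Of 14506 genes tested, 3034 were higher in established cells than at day 0 with the same sign in both cultures (20.9% of genes tested) and 2480 were lower (17.1%). A gene was called where the adjusted p of limma was under 0.05 (Benjamini-Hochberg over all genes), with culture as a term. Changes are established cells minus day 0 on the log2 scale of the deposited values, with the standard error (SE) of this fit. By at least 1 on that scale, a doubling, 1009 genes were higher (6.96%) and 802 lower (5.53%), and by at least 2, 358 were higher and 235 lower. The median change over all genes was 0.05. Counts for the gene lists below are to be read against the shares of 20.9% higher and 17.1% lower over all genes. Centring the arrays on the median of the genes put 2462 higher and 3019 lower, and a further quantile normalization put 2620 higher and 3017 lower, against 3035 and 2481 by the sign of the shared change. The direction of a small change can therefore depend on the scaling. All 6 established arrays lay above both day 0 arrays for 2865 genes (19.8%) and below both for 2105 genes (14.5%). Of the variance 67.4% lay on the first principal component, and there the established arrays lay between 20.3 and 28.0, the day 0 arrays at -74.0 (feeder-free) and -73.2 (feeder). The replicate arrays of day 17 and those of day 32 each correlated at 0.998 across genes, and no values were identical. As a background served 1240 olfactory and vomeronasal receptor genes, mostly silent in such cells. Of these 95% lay below 8.12, and values under that level have no certain order.

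**Figure D1:**
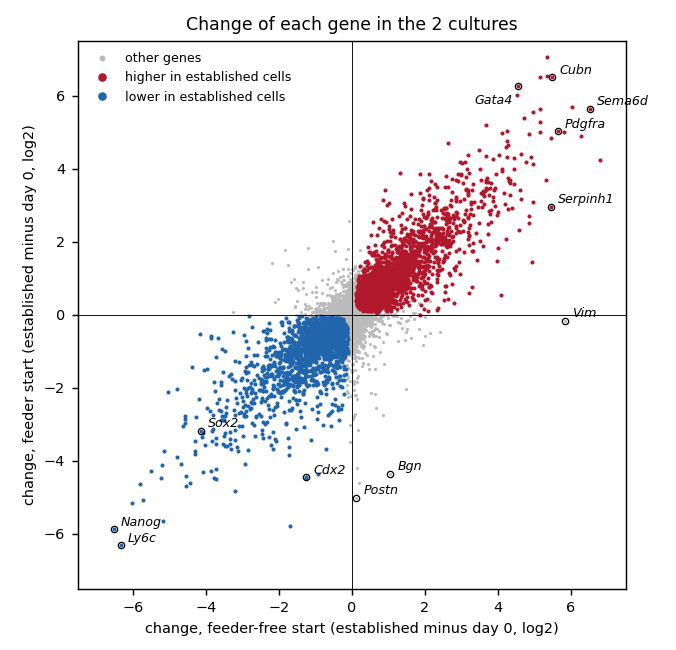
Change of each gene without feeder cells (x axis) against its change on feeder cells (y axis), both as established cells minus day 0 on the log2 scale, with genes called higher in red, genes called lower in blue and the others in grey. Most called genes lie near the diagonal. Circles mark the named genes. Bgn and Postn lie far below the diagonal, lower on feeder cells only, and Vim lies to the right, higher without feeder cells only.

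Most genes of the pluripotency network fell and most hypoblast regulators rose. Nanog, a homeobox factor of the naive epiblast, read 7.08, 7.39 and 7.82 in established cells (lowest, median and highest of 6 arrays, here and below) against 13.92 (feeder-free) and 13.35 (feeder) at day 0. It fell by 6.23 ± 0.23 (SE; adjusted p = 5.80e-07), and every established array was below the background level of 8.12, so this size is read against background and may be understated. Sox2, which pairs with Pou5f1 on pluripotency enhancers, read 9.51, 9.57 and 9.82 in established cells against 13.68 (feeder-free) and 12.97 (feeder) at day 0. It fell by 3.70 ± 0.18 (adjusted p = 2.27e-06), without overlap of the groups and without any established array below the background level. Pou5f1 itself, also known as Oct4, stayed high, at 12.98, 13.80 and 14.41 in established cells against 14.93 (feeder-free) and 14.07 (feeder) at day 0. Its fall of 0.87 ± 0.19 passed the test (adjusted p = 0.00760), but the groups overlapped, because the highest established array lay above the feeder array of day 0. The call of Pou5f1 was lost without the feeder-free day 0 array (-0.88, adjusted p = 0.060), without a culture term (-0.72, adjusted p = 0.23) and with array weights (adjusted p = 0.064). In bulk RNA, fewer cells of a type and less RNA per cell cannot be told apart. Of the 15 pluripotency genes measured 11 fell and 3 rose. The median change of the list was -1.84 without and -1.30 on feeder cells. Klf2, a factor of the naive state, fell by 3.21 ± 0.17. The TGF-beta family ligand Gdf3 (-4.05 ± 0.17) and the nuclear receptor Esrrb (-1.84 ± 0.20) fell too. The 3 that rose were Klf4 (0.88 ± 0.10), Klf5 (0.46 ± 0.11) and the nuclear receptor Nr0b1 (0.32 ± 0.06), and without the feeder-free day 0 array the call of Klf5 was lost (0.23). Klf4 belongs to the same family of zinc finger factors as Klf2, and it read 11.91, 12.36 and 12.49 in established cells against 11.36 (feeder-free) and 11.25 (feeder) at day 0, with every established array above both day 0 arrays. Of 9 genes of the primed epiblast 7 fell and 0 rose.

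Of the 12 hypoblast regulators measured 8 rose and 0 fell, with a median change of 2.69. The median was 2.59 without and 2.43 on feeder cells. Centring gave 7 that rose. Gata4, a zinc finger factor of the extraembryonic endoderm, read 14.20, 14.38 and 14.46 in established cells against 9.79 (feeder-free) and 8.10 (feeder) at day 0. It rose by 5.33 ± 0.32 (adjusted p = 6.26e-06), 40.2-fold. The feeder day 0 array of Gata4 lay just below the background level, so this size may be understated. Gata6, which acts opposite Nanog in the blastocyst, read 14.47, 14.65 and 14.74 in established cells against 9.96 (feeder-free) and 9.11 (feeder) at day 0 and rose by 5.02 ± 0.13 (adjusted p = 1.67e-07). The 6 established arrays of these factors lay within a span of less than 1 log2 unit, far above both day 0 arrays. Sox17, an endodermal HMG box factor, read 14.80, 14.89 and 15.04 in established cells against 10.78 (feeder-free) and 9.87 (feeder) at day 0, a rise of 4.51 ± 0.17. Pdgfra, the PDGF receptor by which hypoblast cells are often recognised, read 13.30, 13.99 and 14.31 in established cells against 8.50 (feeder-free) and 8.49 (feeder) at day 0. It rose by 5.36 ± 0.17 (adjusted p = 3.07e-07), 40.9-fold. The forkhead factor Foxa2 rose by 3.16 ± 0.11 and Sox7, a relative of Sox17, by 2.46 ± 0.26.

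**Figure D2:**
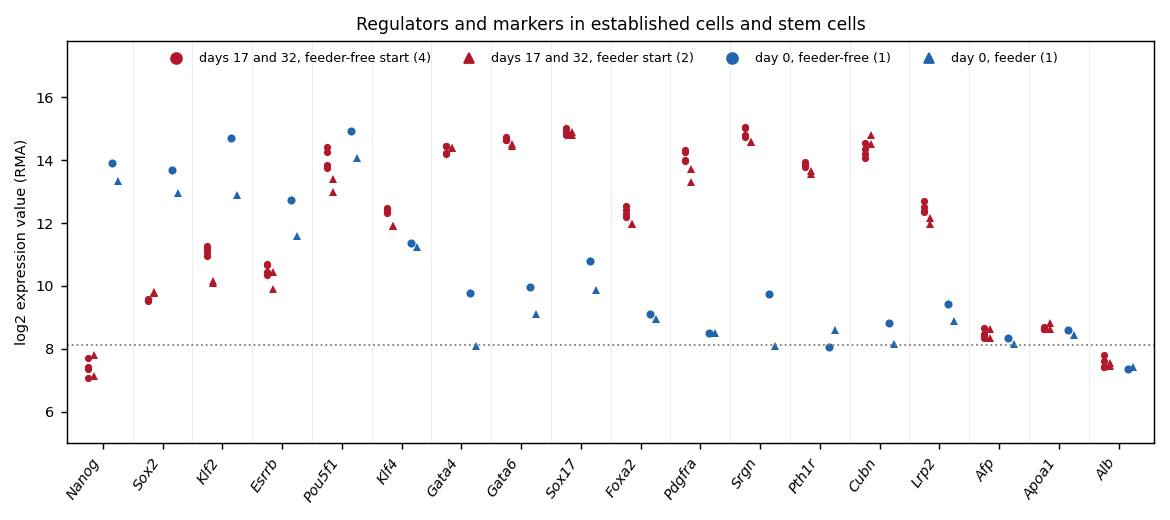
Log2 expression (y axis) of 18 marker genes (x axis) on each array: established cells in red, as circles for the 4 feeder-free arrays and triangles for the 2 feeder arrays, and day 0 in blue. The dotted line is the background level of 8.12. Nanog in established cells lies below that line, Pou5f1 overlaps between the groups, and Gata4, Gata6, Sox17 and Pdgfra in established cells lie above 13.

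Most markers of the parietal endoderm rose, and those of the visceral endoderm split. Of 12 parietal genes measured 10 rose with the same sign in both cultures and 0 fell. Another 1, Vim, was among the 2 genes of all tested (0.0138%) that were called with opposite signs in the cultures. The median change of the list was 3.01 without and 2.30 on feeder cells. Some rises were small on feeder cells, with Plat at 1.07 without and 0.20 on feeder cells and Sparc at 2.55 and 0.79. Srgn, the core protein of an intracellular proteoglycan, read 14.58, 14.78 and 15.05 in established cells against 9.75 (feeder-free) and 8.08 (feeder) at day 0, a rise of 5.77 ± 0.26. Pth1r, the receptor for parathyroid hormone-related peptide, read 13.55, 13.81 and 13.94 in established cells against 8.05 (feeder-free) and 8.59 (feeder) at day 0, a rise of 5.44 ± 0.16. Both were among the 15 largest rises as measured, and no established array overlapped day 0. Snai1, a repressor of epithelial genes, rose by 1.97 ± 0.21, and Thbd, the anticoagulant receptor thrombomodulin, by 4.11 ± 0.35, with 4.96 without and 3.08 on feeder cells. Both day 0 arrays of Thbd, the feeder one of Srgn and the feeder-free one of Pth1r lay below the background level. The sizes of these rises may thus be understated. Of 19 visceral genes 6 rose and 2 fell, with a median change of 0.12, and 6 were below the background level on all 8 arrays. The uptake genes were among those that rose: Cubn, the receptor cubilin, read 14.07, 14.43 and 14.81 in established cells against 8.82 (feeder-free) and 8.16 (feeder) at day 0, a rise of 5.94 ± 0.22 (adjusted p = 5.99e-07). Its partners rose less, the membrane anchor Amn by 2.29 ± 0.25 and the giant receptor Lrp2, or megalin, by 3.11 ± 0.11. The Wnt antagonist Dkk1 rose by 3.33 ± 0.24 and the hedgehog ligand Ihh by 2.99 ± 0.29. The secreted plasma proteins did not pass the test. Afp read 8.35, 8.44 and 8.68 in established cells against 8.36 (feeder-free) and 8.16 (feeder) at day 0 (0.22 ± 0.12, adjusted p = 0.193), Apoa1 was at 0.15 ± 0.09 (adjusted p = 0.216) and Alb at 0.16 ± 0.11 (adjusted p = 0.316). All of their arrays in both groups lay near or below the background level. Those that fell were Hhex (-2.59 ± 0.09), a homeobox factor, and Lefty1 (-2.49 ± 0.61), an inhibitor of Nodal, with -0.93 without and -4.35 on feeder cells.

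Markers of other cell types that such cultures could hold had no common direction. Of 11 trophoblast genes 2 rose, Plac1 (2.30 ± 0.20) and Krt7 (0.32 ± 0.09), and 4 fell, with Tfap2c at -2.18 ± 0.24. Without either day 0 array 1 trophoblast gene rose, as the call of Krt7 was lost. Of 12 mesoderm genes 1 rose, Tnnt2 (1.35 ± 0.25), which encodes a cardiac troponin. Of 11 genes of definitive endoderm and gut 2 rose, 1 without the feeder-free day 0 array, and 1 fell, Cdx2, a homeobox factor that also stands among the trophoblast genes. Cdx2 read 8.56, 9.83 and 9.94 in established cells against 11.14 (feeder-free) and 13.13 (feeder) at day 0 and changed by -1.26 without feeder cells and -4.45 on feeder cells. Of 12 neuroectoderm genes 1 rose and 4 fell, 2 without the feeder day 0 array, with the tubulin Tubb3 at -2.30 ± 0.12. Of 10 endothelial genes 2 rose, 1 without the feeder day 0 array, with the angiopoietin receptor Tek at 2.11 ± 0.24, and 3 fell, with the adhesion molecule Pecam1 at -1.59 ± 0.11. Of 10 blood cell genes 1 rose, Runx1 (2.65 ± 0.12), and 2 fell.

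The 16 fibroblast markers separated 1 array from the rest. Their mean lay between 8.06 and 8.41 on the established arrays, at 8.17 on the feeder-free day 0 array and at 9.59 on the feeder day 0 array, whose stem cells had grown on mouse fibroblasts. Over both cultures 0 rose and 2 fell, 5 without the feeder-free day 0 array. The median change of the list was 0.02 without feeder cells and -0.78 on feeder cells. For some genes the change is given below for each culture, and the part of the fibroblast signal in such changes was not tested. Since each culture had 1 day 0 array, leaving out that array gives the change of the other culture alone.

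The 15 largest rises as measured included those of Akr1c14, Sema6d, Cubn, F3 and Cmklr1. Akr1c14, an aldo-keto reductase that metabolises steroids, read 12.83, 13.74 and 14.11 in established cells against 8.02 (feeder-free) and 6.82 (feeder) at day 0. It rose by 6.13 ± 0.44 (adjusted p = 1.68e-05). Both day 0 arrays were below the background level, so this size may be understated and its rank is not set. Sema6d, a transmembrane semaphorin, read 13.89, 14.33 and 14.40 in established cells against 7.83 (feeder-free) and 8.26 (feeder) at day 0, a rise of 6.12 ± 0.17. F3, tissue factor, which starts coagulation, read 13.96, 14.74 and 15.08 in established cells against 9.15 (feeder-free) and 8.25 (feeder) at day 0, a rise of 5.88 ± 0.38. Cmklr1, a receptor for the chemoattractant chemerin, rose by 5.87 ± 0.13, and P3h2, a prolyl hydroxylase of type IV collagen, by 5.64 ± 0.27. None of these genes had an established array that overlapped day 0. Further members were the secreted serine protease Htra1 (5.63 ± 0.46), the membrane protein Susd2 (5.38 ± 0.11), the imprinted gene Phlda2 (5.22 ± 0.14), the granule protein Nkg7 (5.2 ± 0.39) and the matrix protein Tinagl1 (5.2 ± 0.27). The rise of Htra1 was 6.79 without and 4.23 on feeder cells, that of P3h2 6.27 without and 4.88 on feeder cells, and that of Nkg7 4.52 without and 6.01 on feeder cells. The feeder-free day 0 array lay below the background level in Sema6d, Cmklr1, P3h2, Htra1 and Nkg7, and the feeder one in P3h2 and Nkg7. The sizes of these rises may thus be understated.

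The 15 largest falls included that of Ly6c, a GPI-anchored surface antigen. It read 5.91, 6.29 and 6.55 in established cells against 12.70 (feeder-free) and 12.38 (feeder) at day 0 and fell by 6.33 ± 0.11 (adjusted p = 6.47e-08). All its established arrays were below the background level, so neither the size of this fall nor its rank among genes is set. Nefl, a neurofilament subunit, read 7.77, 7.93 and 8.18 in established cells against 13.97 (feeder-free) and 13.13 (feeder) at day 0 and fell by 5.63 ± 0.19. Slc7a3, a transporter of arginine and lysine, read 8.52, 8.76 and 9.94 in established cells against 14.40 (feeder-free) and 14.71 (feeder) at day 0 and fell by 5.43 ± 0.19. These groups did not overlap. Crabp1, which binds retinoic acid in the cytosol, read 8.55, 8.66 and 8.77 in established cells against 13.80 (feeder-free) and 14.40 (feeder) at day 0 and fell by 5.39 ± 0.12. The 15 largest falls also held the germline gene Tex15, the meiotic cohesin subunit Stag3, the ammonium channel gene Rhag (-4.94 ± 0.25), the hair cell channel gene Tmc1 (-4.88 ± 0.16), Igfbpl1 (-4.48 ± 0.13) and the actin-binding profilin Pfn2 (-4.38 ± 0.28). Nefl, Tex15, Stag3, Rhag, Tmc1 and Pfn2 also had established arrays below the background level, so the sizes of their falls may be understated. Among the genes that changed by at least 1, both day 0 arrays were below the background level for 94 of those that rose, and all 6 established arrays for 121 of those that fell.

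**Figure D3:**
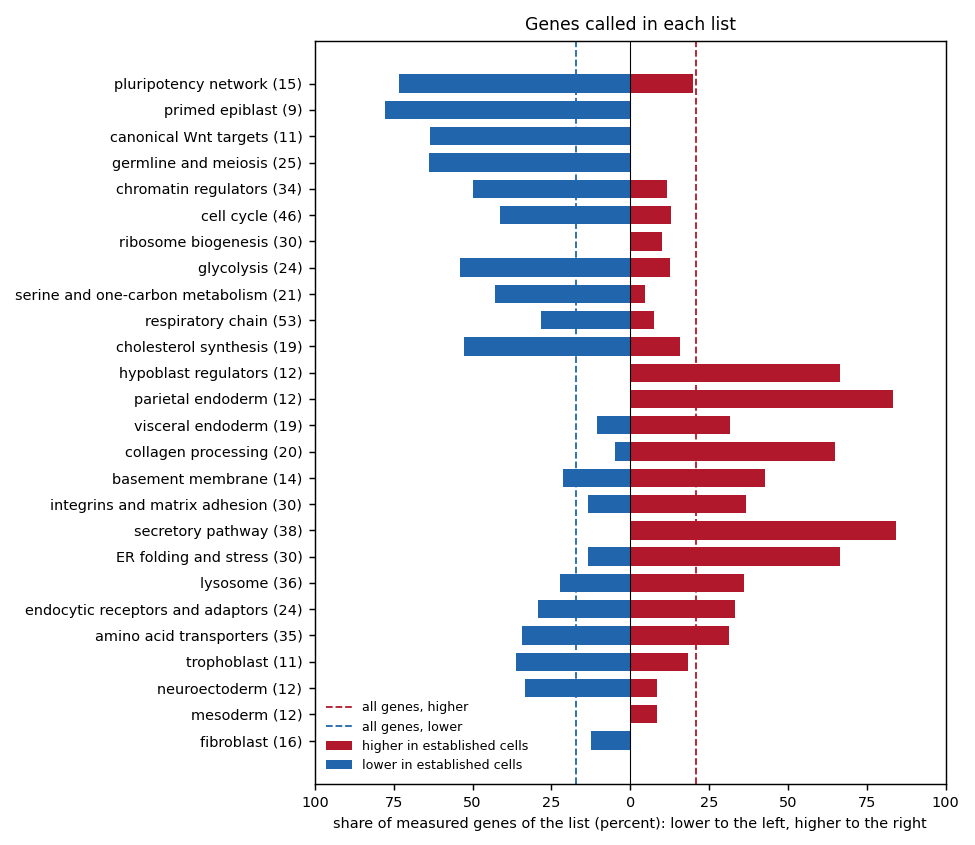
Percent of the measured members (number in brackets) of the gene lists shown that were called lower (bars to the left) or higher (bars to the right) in established cells than at day 0, with dashed lines at the shares over all genes tested, 17.1% lower and 20.9% higher. The secretory pathway, parietal endoderm and hypoblast regulators have the longest bars to the right without a bar to the left, and the germline, primed epiblast, Wnt target and fibroblast lists have bars to the left only.

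Genes of the machinery that makes secreted proteins rose almost throughout. This machinery takes up nascent chains through the Sec61 channel, folds and glycosylates them in the endoplasmic reticulum and carries them to the Golgi in COPII vesicles, while COPI vesicles bring escaped residents back. Of 38 genes of the pathway 32 rose in both cultures and 0 fell, with a median change of 0.67, against 20.9% higher, 17.1% lower and a median of 0.05 over all genes. With the feeder day 0 array left out 30 rose, and 32 with the feeder-free one left out. Centring gave 31 and quantile normalization 32, with 0 lower under both. Most changes were small, and 5 were by at least 1. Sec24d, a cargo-binding subunit of the COPII coat that procollagen export requires, read 12.82, 13.05 and 13.18 in established cells against 9.42 (feeder-free) and 9.75 (feeder) at day 0. It rose by 3.45 ± 0.11 (adjusted p = 2.86e-07), with the groups far apart. Surf4, a cargo receptor, read 13.42, 13.52 and 13.93 in established cells against 12.08 (feeder-free) and 12.47 (feeder) at day 0, a rise of 1.40 ± 0.08. Sec24a, another cargo-binding subunit, read 13.01, 13.19 and 13.52 in established cells against 11.78 (feeder-free) and 12.17 (feeder) at day 0, a rise of 1.31 ± 0.09. In both genes all established arrays lay above both day 0 arrays. The channel subunit Sec61a1 rose by 0.79 ± 0.09, the small GTPase Arf4 by 0.88 ± 0.08, and the COPI subunits Copb1 by 0.74 ± 0.08, Copb2 by 0.57 ± 0.08 and Copa by 0.43 ± 0.08. The calls of Copb2 and of the COPII subunit Sec23a (0.47 ± 0.08) were lost without a culture term, and that of Copa (0.27, adjusted p = 0.073) without the feeder-free day 0 array.

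Of the 30 genes of folding and stress in the endoplasmic reticulum 20 rose and 4 fell, with a median change of 0.72. The largest rises belonged to transcription factors of the secretory programme. Creb3l2, a membrane-bound factor released by cleavage in the Golgi, read 13.77, 13.84 and 13.93 in established cells against 9.69 (feeder-free) and 9.93 (feeder) at day 0. It rose by 4.06 ± 0.08 (adjusted p = 6.47e-08), 16.6-fold, with the 6 established arrays in a narrow band. Its relative Creb3l1, known from collagen-secreting bone cells, read 14.09, 14.35 and 14.67 in established cells against 9.63 (feeder-free) and 11.59 (feeder) at day 0. The shared rise was 3.79 ± 0.43 (adjusted p = 0.000205), with 4.86 without and 2.51 on feeder cells. Xbp1, the factor made active by splicing of its mRNA in the unfolded protein response, read 13.97, 14.18 and 14.33 in established cells against 12.24 (feeder-free) and 11.55 (feeder) at day 0, a rise of 2.18 ± 0.11. These values do not tell the spliced from the unspliced mRNA. Ero1a, the oxidase that drives disulfide formation, rose by 2.49 ± 0.10 and the co-chaperone Dnajc3 by 1.51 ± 0.10. The abundant chaperones rose less from a high level. Hspa5, or BiP, read 15.16, 15.18 and 15.29 in established cells against 14.56 (feeder-free) and 13.92 (feeder) at day 0 (0.92 ± 0.12), and Calr, calreticulin, 15.08, 15.12 and 15.21 in established cells against 14.39 (feeder-free) and 14.17 (feeder) at day 0 (0.84 ± 0.08). Hsp90b1, the chaperone GRP94, rose by 0.71 ± 0.11. Canx, calnexin, read 14.74, 14.81 and 14.90 in established cells against 14.69 (feeder-free) and 14.56 (feeder) at day 0 and did not pass (0.18 ± 0.08, adjusted p = 0.114), except under eBayes with trend and robust.

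The 4 stress genes that fell were Trib3, Ddit3, Sdf2l1 and Chac1. Ddit3, or CHOP, a factor of the apoptotic arm of the stress response, read 10.04, 10.32 and 10.63 in established cells against 11.29 (feeder-free) and 12.01 (feeder) at day 0 and fell by 1.28 ± 0.17. Trib3, a pseudokinase induced under amino acid shortage, read 9.84, 10.13 and 10.39 in established cells against 11.53 (feeder-free) and 11.78 (feeder) at day 0 and fell by 1.5 ± 0.16. In both genes every established array lay below both day 0 arrays. Sdf2l1, a chaperone partner, fell by 0.89 ± 0.20, with -1.35 without and -0.33 on feeder cells. Chac1, which degrades glutathione, fell by 0.71 ± 0.22 (adjusted p = 0.0338). Without the feeder-free day 0 array the calls of Sdf2l1 and Chac1 (-0.52) were lost and 2 of the list fell.

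**Figure D4:**
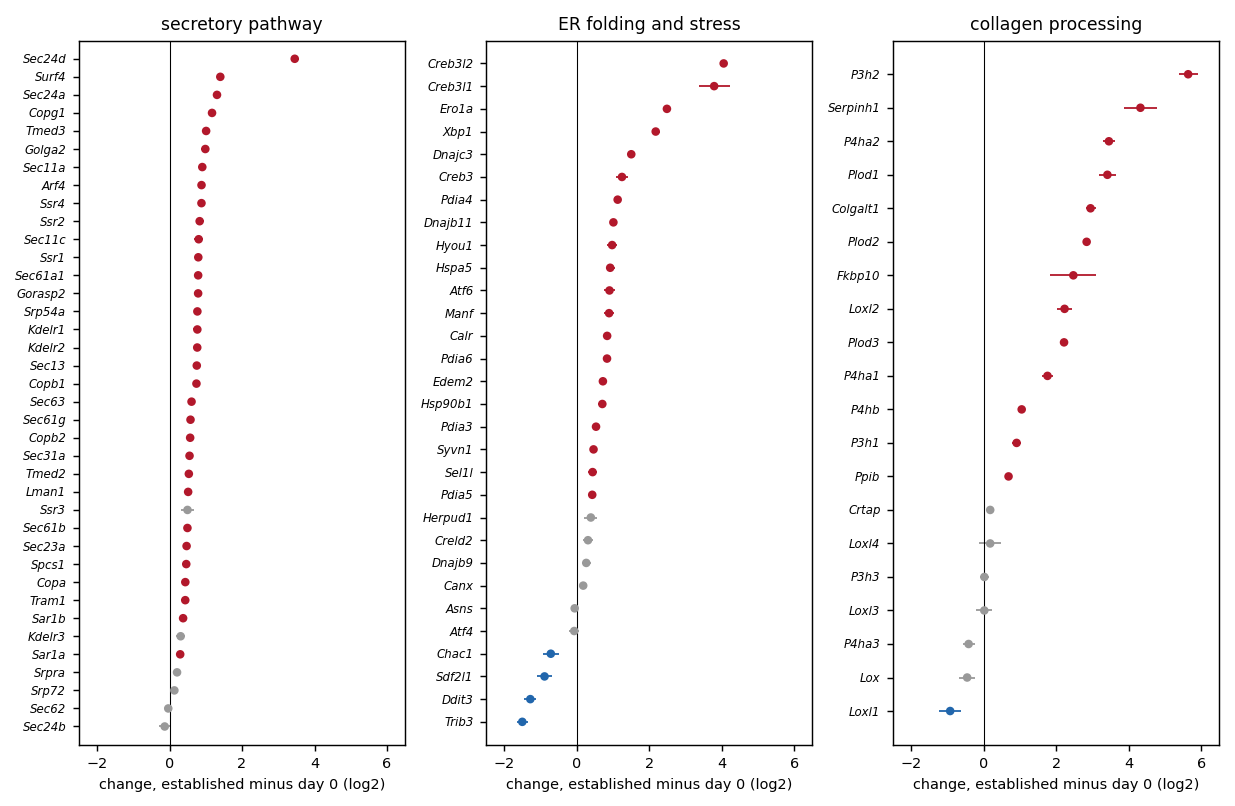
Change (established cells minus day 0, log2 scale, x axis) with its SE for the measured members of the secretory pathway, ER folding and stress, and collagen processing lists, each gene on its own line and ordered by change. Nearly all points lie right of 0, with P3h2, Serpinh1, Creb3l2 and Sec24d among the farthest and Trib3, Ddit3, Sdf2l1, Chac1 and Loxl1 on the left.

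Promoters of these genes are shown for a known stress element near their start, held by members that rose and by members that did not pass the test. The promoter windows, 300 bases each and mostly before the start of the gene, came from RefSeq (assembly GRCr8) and covered 11951 of the genes tested. The endoplasmic reticulum stress element, here CCAAT followed by 9 bases of any kind and by CCACG, was searched on both strands. It was in 15 of all 11951 promoters (0.126%). Genes that rose by at least 1 had it in 3 of 819 promoters (0.366%), and genes that fell by at least 1 in 1 of 659 (0.152%). Among folding promoters it was in 7 of 25 (28.0%), and whether it goes with a rise was not tested. Of the 7 genes, Xbp1, Hspa5, Dnajc3, Calr and Hsp90b1 rose, whereas Canx and Creld2 (0.31 ± 0.14, adjusted p = 0.115) did not pass the test. Creld2 passed without the feeder-free day 0 array (0.56). Windows are written along the strand of the gene, and capitals mark the fixed letters of the element, which read CGTGG and ATTGG where it lies on the other strand.
Xbp1 (chr14:84604533-84604592, plus strand): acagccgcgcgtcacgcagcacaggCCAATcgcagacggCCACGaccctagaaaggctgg
Hspa5 (chr3:38452948-38453007, plus strand): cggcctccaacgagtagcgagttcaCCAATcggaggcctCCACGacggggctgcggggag
Dnajc3 (chr15:102432509-102432568, plus strand): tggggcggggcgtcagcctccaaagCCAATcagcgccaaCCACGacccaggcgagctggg
Calr (chr19:40213117-40213176, plus strand): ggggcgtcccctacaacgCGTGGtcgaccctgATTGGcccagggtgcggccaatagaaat
Hsp90b1 (chr7:23012435-23012494, minus strand): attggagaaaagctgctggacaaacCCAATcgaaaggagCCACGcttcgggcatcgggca
Canx (chr10:35158048-35158107, minus strand): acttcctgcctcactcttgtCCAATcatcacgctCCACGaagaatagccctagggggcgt
Creld2 (chr7:121789214-121789273, plus strand): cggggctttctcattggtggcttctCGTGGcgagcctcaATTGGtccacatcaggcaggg

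A second element, TGACGTGG, a binding sequence known for Xbp1 and Atf6, shares the letters CCACG with the first on the opposite strand. It was in 91 of all 11951 promoters (0.761%), searched on both strands. Genes that rose by at least 1 had it in 7 of 819 promoters (0.855%), and genes that fell by at least 1 in 4 of 659 (0.607%). Among secretory promoters it was in 6 of 31 (19.4%), and whether it goes with a rise was not tested. Of these 6 genes Arf4, Copa, Copb1, Copb2 and Sec23a rose, and Kdelr3, a receptor that retrieves residents of the endoplasmic reticulum, did not pass (0.31 ± 0.12, adjusted p = 0.0711), though it did without the feeder-free day 0 array (0.57). The windows of 4 of them show the element in capitals, as TGACGTGG or, on the other strand, CCACGTCA. A match is a description of the letters and not of binding.
Arf4 (chr16:1903386-1903445, plus strand): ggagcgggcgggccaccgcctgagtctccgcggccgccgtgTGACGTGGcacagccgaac
Copb1 (chr1:177872831-177872890, minus strand): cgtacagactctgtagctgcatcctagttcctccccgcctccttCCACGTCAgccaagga
Copb2 (chr8:108040637-108040696, plus strand): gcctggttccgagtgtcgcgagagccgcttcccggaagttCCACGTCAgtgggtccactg
Kdelr3 (chr7:112959506-112959565, plus strand): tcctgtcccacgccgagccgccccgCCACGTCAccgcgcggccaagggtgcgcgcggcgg

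Most collagen-modifying enzymes and the collagen chaperone rose. Before secretion, collagen chains are hydroxylated on proline and lysine, glycosylated and held by the chaperone Serpinh1, or HSP47. Of 20 genes 13 rose and 1 fell, with a median change of 1.40. With the feeder day 0 array left out 13 rose, and 12 with the feeder-free one left out. Serpinh1 read 15.15, 15.20 and 15.41 in established cells against 9.82 (feeder-free) and 12.23 (feeder) at day 0. It rose by 4.32 ± 0.45 (adjusted p = 0.000131), by 5.46 without and 2.96 on feeder cells. At day 0 its level was higher on the feeder array, which also had the raised fibroblast markers and another medium, and their part was not tested. All established arrays lay above both day 0 arrays. P3h2, which hydroxylates proline in type IV collagen, read 12.55, 13.97 and 14.12 in established cells against 7.75 (feeder-free) and 7.86 (feeder) at day 0, and P4ha2, a subunit of prolyl 4-hydroxylase, 12.07, 12.17 and 12.68 in established cells against 8.73 (feeder-free) and 8.90 (feeder) at day 0. Their rises of 5.64 ± 0.27 and 3.45 ± 0.17 left no overlap. Both day 0 arrays of P3h2 were below the background level, so the size of its rise may be understated. The lysyl hydroxylase Plod1 rose by 3.41 ± 0.23 and the galactosyltransferase Colgalt1 by 2.94 ± 0.14. The 1 that fell was Loxl1, a crosslinking oxidase (-0.93 ± 0.30, adjusted p = 0.0427), with -0.20 without and -1.80 on feeder cells. Its call was lost under most alternatives, among them any that left out the feeder day 0 array.

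Of 14 basement membrane genes 6 rose, 3 fell and the others did not pass, with a median change of 0.18. Col4a1, the main chain of type IV collagen, read 13.40, 14.72 and 14.98 in established cells against 9.54 (feeder-free) and 9.73 (feeder) at day 0 and rose by 4.57 ± 0.30, by 5.30 without and 3.68 on feeder cells. Lama1, the laminin alpha chain of the early embryo, read 15.47, 15.52 and 15.63 in established cells against 12.37 (feeder-free) and 12.15 (feeder) at day 0, a rise of 3.25 ± 0.08. Lamc1, a laminin gamma chain, read 15.19, 15.33 and 15.52 in established cells against 12.56 (feeder-free) and 12.09 (feeder) at day 0, a rise of 2.96 ± 0.09. All 3 were measurable at day 0, and none overlapped between the groups. Fn1, fibronectin, listed with the mesenchymal genes and not among these 14, went the other way. It read 11.65, 12.50 and 13.21 in established cells against 15.01 (feeder-free) and 15.28 (feeder) at day 0, a fall of 2.64 ± 0.33. Of 30 genes of integrins and matrix adhesion 11 rose and 4 fell, 1 without the feeder day 0 array. Itga2, a subunit of a collagen receptor, read 12.80, 13.69 and 13.97 in established cells against 8.35 (feeder-free) and 8.02 (feeder) at day 0, a rise of 5.17 ± 0.15. The laminin receptor subunit Itga6 rose by 1.87 ± 0.16, the subunit Itgb6 by 2.83 ± 0.28 and the proteoglycan Sdc4 by 2.95 ± 0.15.

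Among 32 proteases and their inhibitors 13 rose and 5 fell. Besides Htra1 the largest rises were those of Adamts9 (3.67 ± 0.12), a metalloprotease that cuts proteoglycans, and Timp2, an inhibitor of matrix metalloproteases. Timp2 rose by 3.34 ± 0.62 over both cultures, by 4.94 without and 1.43 on feeder cells. Of 23 coagulation genes 9 rose, 5 without the feeder-free day 0 array, and 2 fell. F3 and Thbd, the initiator and a brake of coagulation, had the largest rises there, and the other 7 rises were under 1. Of 19 complement genes 2 rose, with the C1 inhibitor Serping1 at 2.49 ± 0.27, and 2 fell, 1 without either day 0 array, with the complement shield Cd55 at -3.53 ± 0.23.

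Endocytic and lysosomal genes changed in both directions. Of 24 endocytic receptors and adaptors 8 rose and 7 fell, 4 without the feeder day 17 array. Beside Cubn, Lrp2 and Amn, the adaptor Dab2, which links megalin to clathrin, read 13.08, 13.62 and 13.94 in established cells against 8.76 (feeder-free) and 10.38 (feeder) at day 0, a rise of 4.07 ± 0.27. Of 36 lysosomal genes 13 rose and 8 fell, so the list had no single direction. Ctsc, a cathepsin that activates other proteases, read 12.04, 12.50 and 13.62 in established cells against 8.02 (feeder-free) and 8.94 (feeder) at day 0, a rise of 4.44 ± 0.16. Ctsz, another cathepsin, read 14.62, 14.78 and 14.94 in established cells against 11.18 (feeder-free) and 11.77 (feeder) at day 0, a rise of 3.35 ± 0.11. The cathepsin Ctsl rose by 2.01 ± 0.13, the membrane receptor Scarb2 by 2.18 ± 0.14 and the cholesterol exporter Npc1 by 1.22 ± 0.09. Those that fell included Grn, progranulin, at 11.60, 11.99 and 12.76 in established cells against 14.27 (feeder-free) and 13.86 (feeder) at day 0 (-1.98 ± 0.25), and the cathepsin Ctsd, at 12.15, 12.33 and 12.45 in established cells against 13.43 (feeder-free) and 13.16 (feeder) at day 0 (-0.99 ± 0.11). In each of these the established arrays lay on 1 side of both day 0 arrays. The proton pump that acidifies these compartments had 4 of 19 genes higher (21.1%) and 4 lower (21.1%). These shares are near those over all genes, 20.9% and 17.1%. The median change of the pump genes was -0.19 without and 0.14 on feeder cells.

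Promoters with the letters CACGTGAC, part of the element known for Tfeb in lysosomal genes, did not go with 1 direction, and are shown for that reason. The letters were in 5 of 30 lysosomal promoters (16.7%) and in 350 of all 11951 (2.93%), searched on both strands. Among the 5, Glb1, a galactosidase, rose by 1.67 ± 0.13, while Ctsd, Gaa and the channel gene Mcoln1 (-0.49 ± 0.12) fell and Lamp1, a membrane protein of the lysosome, did not pass the test (0.05 ± 0.11, adjusted p = 0.748). Gaa, a glucosidase, fell by 1.37 ± 0.26, and its call was lost without the feeder-free day 0 array (-1.11, adjusted p = 0.063), as was that of Mcoln1 (-0.30). Capitals mark the match, which reads GTCACGTG on the other strand.
Glb1 (chr8:122963591-122963650, plus strand): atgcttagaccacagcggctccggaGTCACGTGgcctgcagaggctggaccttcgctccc
Ctsd (chr1:206968944-206969003, minus strand): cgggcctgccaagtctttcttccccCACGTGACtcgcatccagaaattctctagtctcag
Gaa (chr10:105028263-105028322, plus strand): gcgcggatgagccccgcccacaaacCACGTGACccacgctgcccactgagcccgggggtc

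Most of the measured Wnt targets fell, while the Nodal and BMP pathways had no settled direction. The stem cell media held a GSK3 inhibitor, which activates the Wnt pathway, and the medium of established cells did not list one. Of 11 Wnt targets 7 fell and 0 rose, with a median change of -0.58. Lef1, a transcription factor that acts with beta-catenin, read 8.55, 8.70 and 8.85 in established cells against 12.73 (feeder-free) and 13.10 (feeder) at day 0 and fell by 4.19 ± 0.10 (adjusted p = 1.41e-07). Axin2, a feedback inhibitor, read 9.03, 9.52 and 9.60 in established cells against 12.43 (feeder-free) and 11.39 (feeder) at day 0 and fell by 2.55 ± 0.17. The groups of both genes were apart. The receptor Tnfrsf19 fell by 2.78 ± 0.15. Of 29 genes of the Nodal and BMP pathways 12 fell and 5 rose. The count of rises was 3 with the feeder day 0 array left out, 2 with the feeder-free day 0 array left out, and 3 with the feeder day 17 array left out. With day 32 alone 6 fell and 7 rose, and with day 17 alone 8 fell and 7 rose, so the list has no settled direction. Nodal itself read 10.34, 10.51 and 10.85 in established cells against 13.54 (feeder-free) and 12.95 (feeder) at day 0 and fell by 2.72 ± 0.17. Its receptor Acvr1c fell by 3.54 ± 0.49, with -4.80 without and -2.03 on feeder cells. Bmp4 fell by 2.86 ± 0.28, with -2.17 without and -3.69 on feeder cells, in cells whose feeder-free medium at day 0 held human BMP4 protein.

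Neither the targets of ERK nor those of JAK-STAT moved as 1 group. The media of day 0 held a MEK inhibitor and that of established cells EGF, PDGF and LIF. Of 17 ERK targets 4 rose and 2 fell. The median change of this list was 0.46 without and -0.22 on feeder cells, so it split by culture. For 5 of the 17 the difference between the cultures was called, as it was for 4.45% of all genes tested. Etv5, a target that FGF signalling is known to raise, read 8.14, 8.63 and 9.74 in established cells against 12.52 (feeder-free) and 12.93 (feeder) at day 0 and fell by 3.69 ± 0.20. Its relative Etv1 fell by 2.68 ± 0.39, with -1.71 without and -3.84 on feeder cells. Phlda1 rose by 1.56 ± 0.14 and the early response gene Fos by 1.34 ± 0.16. Of 12 JAK-STAT targets 5 rose and 1 fell. Socs3, the feedback inhibitor of LIF signalling, read 12.72, 13.28 and 13.46 in established cells against 9.18 (feeder-free) and 9.85 (feeder) at day 0, a rise of 3.66 ± 0.23. Cish, another inhibitor of this family, rose by 1.92 ± 0.09. The kinase gene Pim1 read 11.79, 11.96 and 12.13 in established cells against 14.54 (feeder-free) and 13.62 (feeder) at day 0 and fell by 2.16 ± 0.20. Both Socs3 and Pim1 were without overlap between the groups.

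Insulin family genes changed in opposite ways. Insr, the insulin receptor, read 12.36, 12.80 and 13.13 in established cells against 9.99 (feeder-free) and 10.28 (feeder) at day 0 and rose by 2.65 ± 0.18. Igf1r, the receptor for IGF1, read 8.59, 8.97 and 9.45 in established cells against 12.08 (feeder-free) and 11.29 (feeder) at day 0 and fell by 2.69 ± 0.25. Igf2r, which clears IGF2 and carries lysosomal enzymes, read 9.37, 9.88 and 10.19 in established cells against 12.64 (feeder-free) and 12.37 (feeder) at day 0 and fell by 2.70 ± 0.26. The groups were separate in all 3. The binding protein Igfbp2 fell by 4.08 ± 0.13, and the ligand Igf1 rose by 2.57 ± 0.50, a call lost without the feeder-free day 0 array (2.24, adjusted p = 0.062). Fgf10, a ligand of Fgfr2, read 12.19, 12.41 and 12.49 in established cells against 8.73 (feeder-free) and 8.89 (feeder) at day 0, a rise of 3.58 ± 0.10. Of the 43 receptors and ligands measured 13 rose and 10 fell.

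Glycolysis and serine metabolism held more falls than rises. Of 24 glycolytic genes 13 fell and 3 rose, with a median change of -0.43. Pgk1, phosphoglycerate kinase, read 13.26, 13.50 and 13.64 in established cells against 14.98 (feeder-free) and 15.07 (feeder) at day 0 and fell by 1.56 ± 0.12. Slc2a1, the glucose transporter GLUT1, read 13.77, 14.24 and 14.34 in established cells against 15.18 (feeder-free) and 15.36 (feeder) at day 0 and fell by 1.09 ± 0.14. In both genes the established arrays were all lower than both day 0 arrays. Pfkfb3, which makes an activator of phosphofructokinase, fell by 1.96 ± 0.11, and the change of the aldolase Aldoc was -1.68 ± 0.21. Hexokinase Hk2 fell by 1.21 ± 0.16, with -1.59 without and -0.75 on feeder cells, a call lost without a culture term. Ldhb, a lactate dehydrogenase, fell by 2.30 ± 0.43, a call lost without the feeder-free day 0 array (-1.55, adjusted p = 0.073). The phosphofructokinase Pfkp rose by 1.56 ± 0.19. Of 21 genes of serine and one-carbon metabolism 9 fell and 1 rose, with 5 falls without the feeder-free day 0 array. The glycine cleavage genes Amt (-2.05 ± 0.15) and Gldc (-1.59 ± 0.14) and the threonine pathway gene Gcat (-2.0 ± 0.14) had the largest.

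Of 53 respiratory chain genes 15 fell and 4 rose, with 6 falls without the feeder-free day 0 array. No called change there reached 1, Cox7b, a subunit of cytochrome oxidase, having the largest (-0.94 ± 0.07), and its call was lost without a culture term. Of 19 genes of cholesterol synthesis 10 fell, with the epoxidase Sqle at -1.08 ± 0.14 and the reductase Dhcr7 at -0.88 ± 0.11, and 3 rose, 1 without the feeder day 0 array and 2 without the feeder-free one. Of 28 genes of fatty acid oxidation and peroxisomes 11 rose and 5 fell, 3 without the feeder-free day 0 array. The nuclear receptor Pparg rose by 2.37 ± 0.28, the acyl-CoA synthetase Acsl5 by 2.26 ± 0.09 and the thiolase Acaa2 by 1.90 ± 0.06. In lipid transport, the endothelial lipase Lipg read 14.53, 14.62 and 14.75 in established cells against 10.99 (feeder-free) and 9.34 (feeder) at day 0, a rise of 4.37 ± 0.28, with 3.68 without and 5.2 on feeder cells. The fatty acid binding protein Fabp3 rose by 3.52 ± 0.23 and its relative Fabp5 fell by 2.59 ± 0.12.

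Amino acid transporters changed in both directions. Of 35 measured 11 rose and 12 fell, with a median change of -0.01 and 7 falls without the feeder-free day 0 array. Beside Slc7a3, Slc7a5, the transporter of large neutral amino acids, read 11.47, 12.09 and 13.03 in established cells against 14.71 (feeder-free) and 14.59 (feeder) at day 0 and fell by 2.26 ± 0.28. Slc43a1, which also carries large neutral amino acids, rose by 3.96 ± 0.27, with 4.63 without and 3.16 on feeder cells. Both day 0 arrays of Slc43a1 were below the background level, so these sizes may be understated. Rises were also found for the glutamate transporter Slc1a3 (3.58 ± 0.11) and the small neutral amino acid transporter Slc38a4 (3.42 ± 0.28). Of 39 glutathione and antioxidant genes 14 rose and 7 fell, whereas centring put 12 higher and 14 lower and quantile normalization 13 higher and 12 lower. Gsta4, a transferase that detoxifies lipid aldehydes, rose by 4.03 ± 0.14, and Gstm1 by 3.02 ± 0.40, with 4.01 without and 1.83 on feeder cells. The selenium carrier Selenop fell by 2.37 ± 0.60, with -3.85 without and -0.59 on feeder cells, a call lost without the feeder-free day 0 array.

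Most germline genes measured fell, and 0 of the list rose. Of 25 genes 16 fell, 16 without either day 0 array, and 7 were below the background level on all 8 arrays. Tex15, required in male meiosis, read 7.63, 7.89 and 8.64 in established cells against 13.60 (feeder-free) and 13.23 (feeder) at day 0 and fell by 5.28 ± 0.22. Stag3, a cohesin subunit, read 8.0, 8.10 and 8.29 in established cells against 12.79 (feeder-free) and 12.28 (feeder) at day 0 and fell by 4.42 ± 0.14. Dazl, an RNA-binding protein of germ cells, read 6.36, 6.64 and 6.73 in established cells against 9.79 (feeder-free) and 9.79 (feeder) at day 0 and fell by 3.17 ± 0.10. The established values of these genes were near or below the background level and all below day 0, so these sizes may be understated. The helicase Ddx4 fell by 2.69 ± 0.09 and the cohesin subunit Smc1b by 3.91 ± 0.35. In DNA methylation, where 3 of 11 genes rose and 4 fell, Uhrf1, the cofactor of maintenance methylation, read 11.84, 12.16 and 12.28 in established cells against 13.81 (feeder-free) and 13.27 (feeder) at day 0 and fell by 1.45 ± 0.11. The methyltransferase Dnmt1 fell by 0.50 ± 0.08, and Zfp57, which protects imprints, fell by 1.98 ± 0.11. The methyl-binding protein Mbd2 rose by 1.30 ± 0.18.

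Chromatin and cell cycle genes fell more often than they rose. Of 34 chromatin regulators 17 fell and 4 rose, 2 without the feeder-free day 0 array. The Polycomb genes Cbx7 (-1.65 ± 0.18) and Cbx6 (-1.54 ± 0.29) fell most, and Ezh2, the methyltransferase of the complex, fell by 0.95 ± 0.13. Hmga1, an architectural protein, fell by 1.21 ± 0.15, a call lost without a culture term. Of 46 cell cycle genes 19 fell and 6 rose. Ccnd3, a D-type cyclin, read 12.62, 12.71 and 13.11 in established cells against 14.07 (feeder-free) and 14.45 (feeder) at day 0 and fell by 1.39 ± 0.07, whereas the E-type cyclin Ccne2 rose by 1.56 ± 0.12. The established arrays of Ccnd3 were all below both day 0 arrays. Most other falls were under 1. Of 30 genes of ribosome biogenesis 3 rose and 0 fell. Centring put 2 higher and 3 lower, and quantile normalization 2 higher and 7 lower, so this list has no settled direction.

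Genes of epithelial cells also changed in both directions. Of 34 junction genes 9 rose and 11 fell, 6 without the feeder-free day 0 array. The claudin Cldn6 rose by 2.68 ± 0.23, while the connexin Gjb5 fell by 2.83 ± 0.11 and the epithelial regulator Grhl2 by 2.56 ± 0.27. Cdh1, E-cadherin, fell by 0.98 ± 0.24, with -1.44 without and -0.43 on feeder cells. Of 15 keratins 3 rose (20%) and 1 fell (6.67%), against 20.9% and 17.1% over all genes. Krt4 rose by 3.09 ± 0.42 and Krt8, a keratin of simple epithelia, by 1.73 ± 0.17. Krt19 fell by 1.91 ± 0.43, with -2.89 without and -0.73 on feeder cells. The calls of Cdh1 and Krt19 were lost without the feeder-free day 0 array.

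For 646 genes (4.45% of genes tested) the change was not the same in both cultures, each called on the difference of the changes in a fit with 4 residual degrees of freedom. Among them 399 were also called with the same sign in both cultures, and 211 had opposite signs. Each difference rests on 1 day 0 array per culture. The 5 named ones of opposite sign held genes known from fibroblasts. Vim, vimentin, read 14.30, 14.49 and 14.62 in established cells against 8.69 (feeder-free) and 14.57 (feeder) at day 0. It changed by 5.84 without and -0.17 on feeder cells (difference 6.01, adjusted p = 2.07e-05), so the established arrays were near the feeder day 0 array and far above the feeder-free one. The shared call of Vim (3.11, adjusted p = 0.0491) was lost under most alternatives. Bgn, the matrix proteoglycan biglycan, read 8.91, 9.34 and 9.54 in established cells against 8.14 (feeder-free) and 13.73 (feeder) at day 0, with changes of 1.05 without and -4.36 on feeder cells. Postn, the matrix protein periostin, read 6.66, 6.89 and 7.02 in established cells against 6.80 (feeder-free) and 11.79 (feeder) at day 0, with 0.12 without and -5.02 on feeder cells. In Bgn and Postn the feeder day 0 array alone stood apart. Trh, a hormone precursor, changed by 0.20 without and -4.62 on feeder cells, and Thbs1, a matrix glycoprotein, by 0.14 and -4.20. On the feeder day 0 array the 16 fibroblast markers averaged 9.59, against 8.17 on the feeder-free one, and their part in these differences was not tested.

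**Figure D5:**
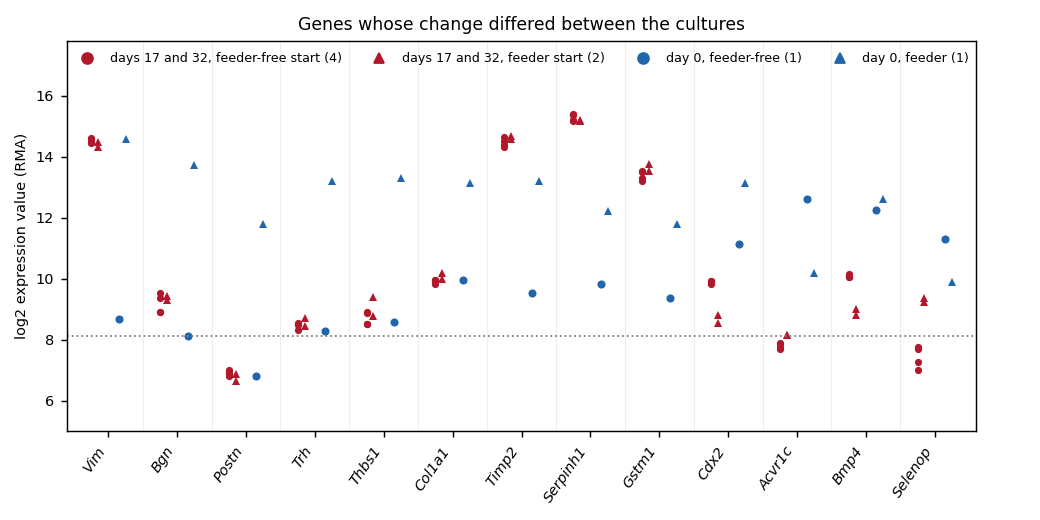
Log2 expression (y axis) on each array of 13 genes (x axis) whose change differed between the cultures, with established cells in red and day 0 in blue, circles for feeder-free and triangles for feeder arrays. For Vim, Bgn, Postn, Trh, Thbs1 and Col1a1 the feeder day 0 triangle lies far above the feeder-free day 0 circle.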

How the data were processed

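RNA was hybridised to Affymetrix Rat Gene 1.0 ST arrays. The authors deposited 1 table of log2 expression values, which the submitters' processing notes credit to RMA. All columns share a median of 8.97, and the step that set it is not given in the sources used here. Scanner files were not used here, detection per probe could not be examined, and RMA understates changes of dim genes. Precision is limited by how few arrays there are.

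Of 29214 rows, 15310 carried a single gene symbol in the platform annotation, 323 several and 13581 none. By Entrez identifier 15279 of the named rows were found in RefSeq (GRCr8), with 0 symbols updated. For each of 527 genes with several rows the brightest row by mean over 11 arrays was used. This gave 14506 genes, and no dim gene was removed.

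Established cells were compared with day 0 by limma 3.58.1 in R 4.3.3 (lmFit and eBayes, terms for state and culture, 5 residual degrees of freedom), and a second fit tested the difference of the change between cultures. P-values were adjusted over all genes (Benjamini-Hochberg), with a threshold of 0.05. The calculation was checked on simulated data with known answers.

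The comparison and the 48 gene lists, with 1080 distinct genes, were chosen with earlier results of these data known. Genes were named by a rule: the 15 largest rises and 15 largest falls among called genes whose established arrays all lay on 1 side of the day 0 array of their culture, the 5 genes of opposite sign with the widest difference between cultures, and 3 called members of each list at most. For a list with none called it took the 2 largest changes. Pdgfra, Gata4, Gata6, Sox17, Sox2, Nanog and Pou5f1 were always named. Part of these 155 genes is printed. Named outside the rule, after their values were seen, were Klf2, Klf4, Esrrb, Foxa2, Sox7, Afp, Apoa1, Alb, Amn, Ihh, Hhex, Axin2, Igf1, Igf1r, Insr, Xbp1, Hspa5, Calr, Canx, Creld2, Dnajc3, Hsp90b1, Ddit3, Trib3, Sdf2l1, Arf4, Copb1, Copb2, Kdelr3, Sec23a, Copa, Sec61a1, Plod1, Colgalt1, Ctsl, Npc1, Ctsd, Gaa, Glb1, Grn, Pgk1, Hk2, Slc2a1, Pfkp, Dazl, Ddx4, Ezh2, Dnmt1, Cdh1, Slc7a5, Slc38a4, Itga6, Klf5, Nr0b1, Krt7, Lefty1, Loxl1, Chac1, Mcoln1, Lamp1, Acaa2, Fos and Col1a1.

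As alternatives, the dimmest 25% of genes were left out, rows of a gene were averaged, or all rows were used. Arrays were centred, quantile normalized or weighted, and eBayes was run with trend and robust. A change of at least 1 was required, the culture term was dropped, or a replicate block was added. Day 17, day 32 and the feeder-free arrays were each used alone, the days had separate terms, all 11 arrays entered 1 fit, and each array was left out in turn. List counts under the scalings, for each day and without either day 0 array were added after seeing the data. Deviations of same-numbered arrays correlated at -0.0991 (2 pairs), so the numbers were not taken to pair samples. Figures were drawn with matplotlib 3.10.9.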

Additional observations from a re-analysis of the deposited data

Results flagged for a closer look

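In 6 of 219 genes examined 1 of the 6 established arrays lay far from the other 5, and each time it was the feeder array of day 17. Its value was 11.84 for Uhrf1, 10.11 for the Polycomb gene Cbx6, 10.18 for the kinase gene Cdk6, 11.18 for Tnnt2, 8.82 for Apoa1 and 9.03 for Axin2. Chance marks about 1 in 20 groups where all 6 values are independent and of 1 kind. These 6 arrays came from both cultures and both days, with replicate pairs only in the feeder-free culture, so that rate need not hold. The cause was not tested.

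For 49 of these genes the change itself (established cells minus day 0) differed between the cultures in the fit with a term for that difference. Over all genes tested this held for 646 (4.45%). Many of the genes examined were chosen for large changes and 5 for this very difference, so the 2 counts are not alike. Values are the feeder-free change minus the feeder change on the log2 scale, and each rests on 1 day 0 array per culture. Among regulators and signalling genes the difference was -0.96 for Sox2, -1.73 for Gata4, -0.66 for Gata6, -0.85 for Sox17, 1.34 for Sox7, 3.19 for Cdx2, -1.39 for Grhl2, 2.13 for Etv1, 1.16 for Socs3, -2.77 for Acvr1c, 1.52 for Bmp4 and 3.42 for Lefty1. It was 1.05 for the receptor Pdgfrb, -1.71 for the receptor Tie1, 0.80 for Pth1r and 0.88 for Sema6d.

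Among genes of matrix, secretion and coagulation it was 1.62 for Col4a1, 2.99 for the collagen gene Col1a1, 1.39 for P3h2, 2.5 for Serpinh1, 1.24 for Plod1, 1.60 for Loxl1, 2.56 for Htra1, 3.51 for Timp2, 1.88 for Thbd, -1.34 for Srgn, 2.35 for Creb3l1 and -1.03 for Sdf2l1. The 16 fibroblast markers averaged 9.59 on the feeder day 0 array and 8.17 on the feeder-free one, and their part in these differences was not tested.

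Among genes of metabolism and transport the difference was -1.52 for Lipg, -1.21 for Fabp3, -0.76 for the sterol enzyme gene Hsd17b7, -0.84 for Hk2, 2.19 for Gstm1, -3.26 for Selenop, 1.47 for Slc43a1 and -1.23 for the proton pump gene Atp6v0a1. Elsewhere it was -1.18 for Tex15, -1.21 for Rhag, -0.76 for Tmc1, 1.12 for Cldn6, -2.16 for Krt19, 2.30 for Ifitm3, -1.41 for Ifit1 and 2.25 for Ncam1. In Acvr1c, Grhl2, Selenop, Tex15, Rhag, Tmc1, Postn and Ifit1 established arrays lay below the background level. A day 0 array did so in Gata4, Srgn, Sema6d, P3h2, Htra1, Pth1r, Thbd, Slc43a1, Postn and Ifit1. The sizes of the differences of all these genes are not set. The 5 named genes of opposite sign, picked by the naming rule for their wide differences, were at 6.01 for Vim, 5.41 for Bgn, 5.14 for Postn, 4.82 for Trh and 4.33 for Thbs1.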

How the results depend on the processing

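The 5516 calls (3035 higher, 2481 lower by the shared change) fell to 3564 (1942 and 1622) without a culture term and to 1813 (1010 and 803) with a change of at least 1, and over all rows of the table, which holds more rows, there were 8328, with 3832 lower. Leaving out each array in turn gave 4340 to 5222 calls, 2459 to 2913 higher and 1881 to 2397 lower. The lowest counts came without the feeder-free day 0 array, which kept 67.7% of the calls, while 79.7% were kept without the feeder day 0 array. Array weights kept 68.3% and the dimmest 25% of genes left out 93.9%. The numbers of the replicates were not shown to pair samples (correlation of deviations -0.0991, 2 pairs), and a replicate block gave 4831 calls, 2685 higher and 2146 lower. The 646 differences between cultures became 304 with the replicate block and 440 to 511 when single arrays were left out. Signs turned where 1 day 0 array was left out or the feeder-free arrays were used alone: single arrays left out gave -0.17 to 5.84 for Vim, -4.36 to 1.05 for Bgn, -5.02 to 0.12 for Postn, -4.62 to 0.20 for Trh and -4.20 to 0.14 for Thbs1. Lamp1, not called, read -0.028 with centring, -0.024 for day 32 alone, -0.049 after quantile normalization, and -0.096 to 0.23 with single arrays left out. In 4808 pairs of a named gene and an alternative, 128 lost the call in the same direction, 9 gained one and 14 turned sign, and 172 of 207 called genes kept the call under all alternatives run. Without the dimmest 25% of genes 6 germline genes fell, because fewer were tested. With day 32 alone 9 of the respiratory chain and 6 of cholesterol synthesis fell, and 5 endocytic genes rose and 3 fell. Day 17 alone left 6 junction genes lower. Centring put 4 fibroblast genes lower. With 1 day 0 array per culture, no spread at day 0 could be measured within a culture, and low signal limits every gene near 8.12. The cause of these moves was not tested where no cause is given.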

Other observations

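Imprinted genes changed in both directions. Of 21 measured 7 rose (33.3%) and 5 fell (23.8%), against 20.9% and 17.1% over all genes. Without the feeder day 0 array 5 rose and 3 fell. Without the feeder-free one 4 rose and 6 fell. H19, a noncoding RNA, read 13.84, 13.95 and 14.61 in established cells against 12.09 (feeder-free) and 12.34 (feeder) at day 0, a rise of 1.97 ± 0.10, and Phlda2, a gene that limits placental growth, rose by 5.22 ± 0.14. Every established array of both lay above both day 0 arrays. Igf2r fell by 2.70 ± 0.26. Among 32 genes of interferon and antigen presentation 12 rose and 2 fell, with a median change of 0.23. Tapbp, which loads peptides on MHC class I, rose by 1.64 ± 0.19. The antiviral gene Ifit1 moved by 1.03 without and 2.43 on feeder cells, and Ifitm3 by -1.12 without and -3.43 on feeder cells.

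Genes of vitamin and metal handling changed in both directions, 12 of 39 higher (30.8%) and 9 lower (23.1%). Over all genes these shares were 20.9% and 17.1%. Stra6, the receptor that takes up retinol, rose by 3.70 ± 0.32, while Crabp1 fell by 5.39 ± 0.12 and the thiamine transporter Slc19a3 by 3.91 ± 0.20. Among 25 RNA-binding regulators 7 rose, 4 without the feeder-free day 0 array, and 8 fell. The splicing regulator Khdrbs3 fell by 3.47 ± 0.10, and Mbnl3, another splicing regulator, rose by 2.12 ± 0.34. Among 17 mesenchymal genes 3 rose in both cultures (17.6%) and 3 fell (17.6%), 1 without the feeder-free day 0 array. These shares are near those over all genes, 20.9% and 17.1%. Of its members Snai1 rose and Fn1 fell. Letters bound by GATA factors, AGATAA on either strand, were in 6.59% of 819 promoters of genes that rose by at least 1, in 6.68% of 659 promoters of genes that fell by at least 1, and in 9.32% of all 11951. The median GC content of these promoters was 62.3%, 61% and 58%.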
